A study of Mus musculus with 96 samples.

Results

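The regions described here are the 37 regions of GATA6 binding whose summit lay near Gata6 (chromosome 18, from 102 kb upstream of the gene start to 138 kb downstream) or near Gata4 (chromosome 14, from 98.3 kb upstream to 172 kb downstream, mm10), out of 42403 regions in the deposited table. The Gata6 window held 13 regions and the Gata4 window 24. They were chosen by position alone, but every region of the table had already been called as a GATA6 peak by the authors. The signal of 5 transcription factors and of input chromatin was measured by ChIP-seq, which sequences the DNA that an antibody pulls down with its crosslinked protein. The experiment used KH2 mouse embryonic stem (ES) cells of C57BL/6 x 129/Sv background, in which doxycycline (Dox) switches on a transgene encoding HA-tagged GATA6. They were grown with LIF on feeders and profiled without Dox and then at 8 h, 16 h, day 1, day 2 and day 4 of Dox at 1 µg/mL. All ES cells, controls included, carried the transgene, in clonal lines, and the knock-down was made in a single clone. XEN cells, a line of extra-embryonic endoderm (X10, CD1 strain), were untreated and grown without LIF, and their labels name no transgene. For the knock-down, cells with Dox received control siRNA or Oct4 siRNA, and GATA6 and SOX17 were profiled after 48 h.

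GATA6 and GATA4 are zinc-finger factors that bind GATA motifs, and both are known regulators of the primitive endoderm (PrE), the lineage that separates from the epiblast in the blastocyst and forms yolk sac. SOX17 is another regulator of this lineage. OCT4 and SOX2 bind composite OCT:SOX motifs in pluripotent cells, and ESRRB is a nuclear receptor of the same network.

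Each deposited value is in RPM, the reads of a region scaled to the sequencing depth, and combines the replicate libraries of its condition. In 36 of the 45 columns used, pooled values could be split into whole reads of 2 libraries, called the deeper and the shallower and given in this order below, and 4 columns behaved as a single library. Of these, GATA6 before Dox and OCT4 in XEN cells had 1 labelled library, and ESRRB at 8 h and SOX17 at 16 h had 2. The 76 libraries so obtained held 5.42 to 69.4 M reads, with a median of 15.3 M. In 5 columns, those before Dox of SOX17, OCT4, SOX2, ESRRB and input, values could not be split into 2 libraries, so only the pooled value is given. These columns had 2 labelled libraries each, or 3 for SOX2, and may pool more libraries than are labelled. Per the methods, libraries of most conditions came from independent chromatin preparations. Whether these were from separate cultures is not given in the sources used here, so p-values measure the spread between these libraries, which may be technical. Between libraries of a pair, the correlation of log reads over all regions ranged from 0.492 to 0.951.

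Regions are named by the distance of their summit from the gene start, with downstream meaning into the gene or beyond it. Gata4 lies on the minus strand of chromosome 14. Its start is taken here as position 63271692, the outermost annotated start of its coding transcripts. Other transcripts start further in, among them at 63245271 and 63245248, and distances from those would differ. Of the 24 Gata4 regions, 12 were upstream of position 63271692 and 10 had their summit inside the gene. The summits 140.9 and 100.5 kb downstream lay inside Ctsb and Fdft1. Those 40.4, 49.8, 62.7 and 66.1 kb downstream, though inside Gata4, lay nearer the start of Neil2 than position 63271692. In the deposited motif calls, 23 of 24 held a match to the GATA6 motif, against 89.7% of all regions, and 18 of 24 held an OCT:SOX match, against 71.5%. Matches to the SOX17 motif were present in 16 of 24, against 69.2%, and to the ESRRB motif in 8 of 24, against 36.3%. The Gata4 regions were wider, with a median of 724 bases against 524 over all. Per kb they held 3.97 GATA6 matches, against 4.05 over all regions. The best GATA6 match held the letters GATAAG on the matched strand in 12 of 23 regions, against 52.0% of all regions with a match.

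The sequences around the best GATA6 match of the 7 Gata4 regions described most fully are given here 5′ to 3′ on the strand of the match, with 24 bases on either side, the match in capitals and mm10 positions. They show which letters lie under the strongest GATA6 motif of each region, and none overlapped an annotated exon.
67.1 kb upstream, chr14:63338773-63338833, minus strand: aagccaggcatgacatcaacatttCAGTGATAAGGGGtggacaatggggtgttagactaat
40.4 kb downstream, chr14:63231333-63231393, plus strand: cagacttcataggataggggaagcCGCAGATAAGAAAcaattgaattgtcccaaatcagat
11.9 kb upstream, chr14:63283699-63283759, minus strand: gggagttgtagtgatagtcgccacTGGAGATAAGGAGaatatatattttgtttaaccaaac
6.3 kb downstream, chr14:63265404-63265464, plus strand: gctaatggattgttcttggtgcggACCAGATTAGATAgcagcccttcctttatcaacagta
0.1 kb upstream, chr14:63271731-63271791, plus strand: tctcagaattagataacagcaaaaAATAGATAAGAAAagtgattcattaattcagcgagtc
66.1 kb downstream, chr14:63205307-63205367, minus strand: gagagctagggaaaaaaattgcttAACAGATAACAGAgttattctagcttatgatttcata
25.7 kb upstream, chr14:63297523-63297583, plus strand: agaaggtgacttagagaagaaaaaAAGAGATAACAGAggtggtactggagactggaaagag
The region 40.4 kb downstream had the highest motif score of these, 15.0, and 13 matches in 2472 bases. The region 6.3 kb downstream had the lowest, 9.36, with 4 matches. The match at the gene start (0.1 kb upstream) scored 13.9 and lay 18 bases from the summit.

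For OCT4 and SOX2, the best OCT:SOX match of the region 6.3 kb downstream of the Gata4 start, which had the highest OCT4 value of that locus at day 2, is printed with its flanks and with the match in capitals.
6.3 kb downstream, chr14:63265754-63265816, minus strand: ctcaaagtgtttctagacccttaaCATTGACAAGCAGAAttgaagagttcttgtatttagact
This match scored 10.6 and lay 381 bases from the GATA6 summit.

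**Figure D1:**
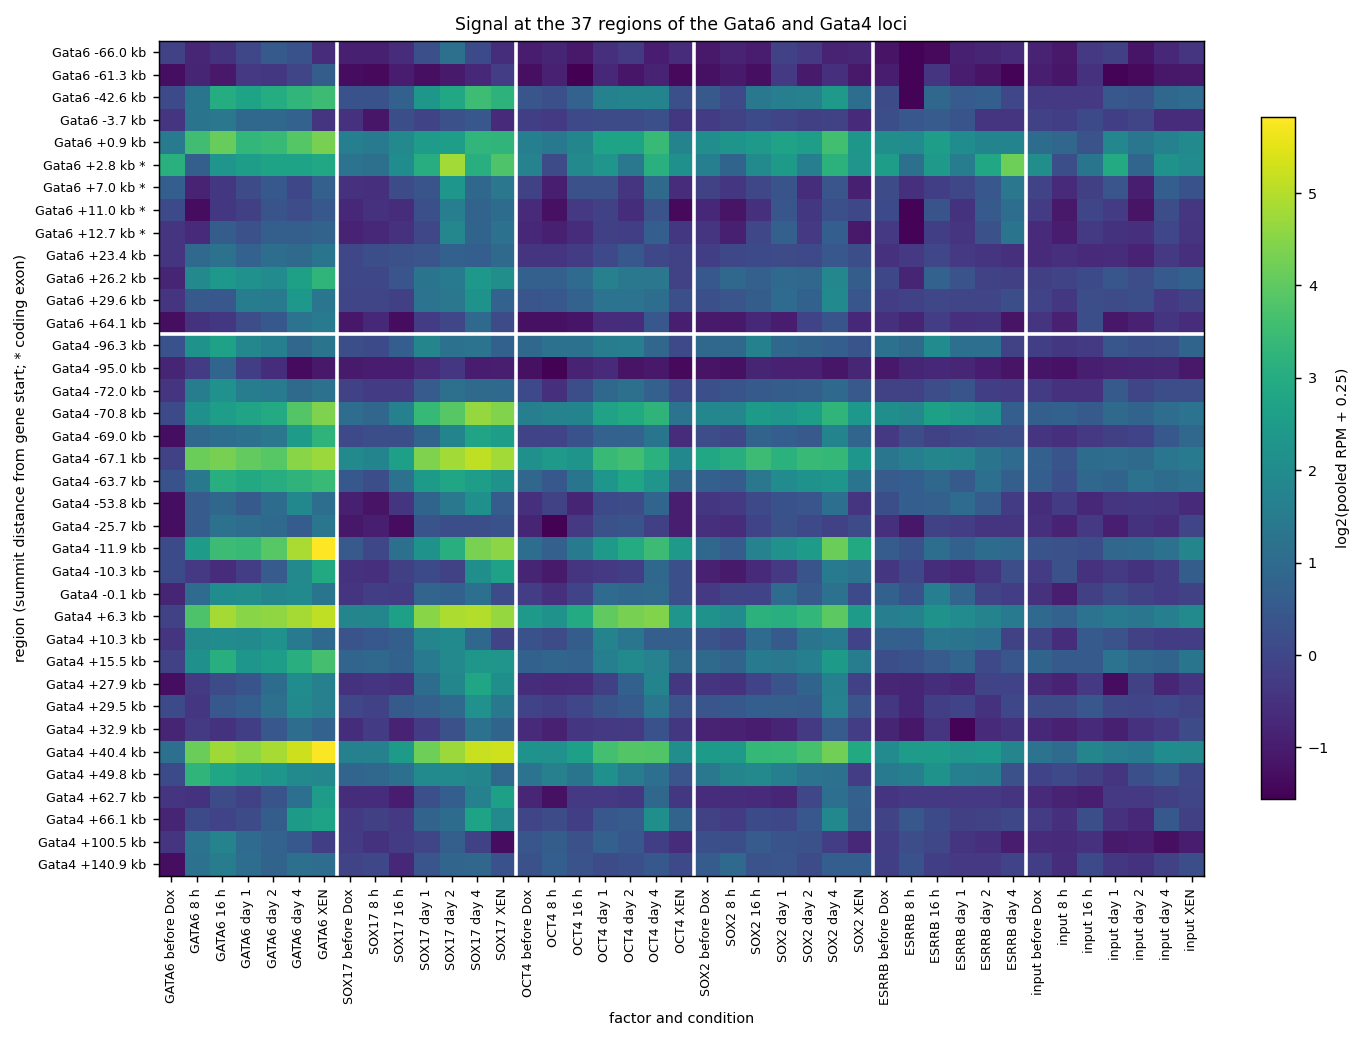
Pooled signal of 5 factors and input (columns, by condition) at the 37 regions (rows, named by summit distance in kb from the gene start, minus for upstream, with an asterisk for regions on Gata6 coding exons), as log2(RPM + 0.25). At day 4 the highest GATA6 row was Gata4 +40.4 kb with 38.2 RPM, and the highest ESRRB row was the coding-exon region Gata6 +2.8 kb with 18.1 RPM.

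GATA6 signal was present by 8 h at some Gata4 regions, such as those 67.1 kb upstream and 40.4 and 6.3 kb downstream. The authors classed 7 of the 24 as late. At day 4 GATA6 was higher than at 8 h in 13 of 24 regions and lower in 3 (limma, FDR under 0.05 and log2 change over 1, Benjamini-Hochberg adjusted over all regions). Of all regions tested, 30.9% were higher and 35.1% lower. The median log2 change of the pooled values was 1.09 (SD between libraries 0.140) at Gata4 against -0.02 over all regions. By the size of the pooled change alone, 13 rose and 3 fell by more than 1, against 30.9% and 34.8% of all regions.

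The highest GATA6 signal at 8 h in the Gata4 window was 67.1 kb upstream, within the gene Gm5463 but outside its exons (chr14:63338108-63339256). There GATA6 measured 0.653 RPM before Dox, 18.6 and 17.0 RPM at 8 h, 15.7 and 23.4 RPM at 16 h, 17.9 and 14.8 RPM at day 1, 15.2 and 14.6 RPM at day 2, 17.4 and 27.3 RPM at day 4 and 28.9 and 22.7 RPM in XEN cells. All libraries with Dox were far above the value before Dox, and those of 8 h and day 4 overlapped. The log2 change from 8 h to day 4 was 0.29 (SE 0.251, adjusted p = 0.297) and did not pass.

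In the Gata4 window the highest GATA6 signal at day 4 was inside the gene, 40.4 kb downstream (chr14:63230600-63233072). It measured 1.96 RPM before Dox, 16.5 and 19.1 RPM at 8 h, 19.0 and 35.3 RPM at 16 h, 24.0 and 22.9 RPM at day 1, 31.1 and 26.4 RPM at day 2, 32.3 and 44.1 RPM at day 4 and 58.1 and 50.1 RPM in XEN cells. Both day 4 libraries were above both of 8 h, and in pooled RPM at day 4 the region stood at or above 99.95% of all regions. The log2 change was 1.08 (SE 0.243, adjusted p = 0.000318). It was 0.98 without the deeper 8 h library and 0.86 without the shallower day 4 library, under the size required.

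The region 11.9 kb upstream of Gata4, outside any gene (chr14:63282991-63284517), was the highest of its locus in XEN cells. It measured 0.817 RPM before Dox, 4.71 and 6.37 RPM at 8 h, 7.68 and 14.6 RPM at 16 h, 9.97 and 11.15 RPM at day 1, 15.4 and 13.9 RPM at day 2, 26.9 and 32.2 RPM at day 4 and 60.8 and 51.8 RPM in XEN cells. The groups of 8 h, day 4 and XEN cells did not overlap. The log2 change from 8 h to day 4 was 2.39 (SE 0.264, adjusted p = 3.57e-08) and passed under every alternative tried. Its neighbour 10.3 kb upstream moved from 0.288 and 0.785 RPM at 8 h to 2.77 and 4.33 RPM at day 4, a log2 change of 2.42 (SE 0.387, adjusted p = 5.99e-06).

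At 6.3 kb downstream, inside Gata4 and outside its exons (chr14:63264284-63266085), GATA6 went from 0.653 RPM before Dox to 13.2 and 13.2 RPM at 8 h, 16.5 and 39.6 RPM at 16 h, 25.9 and 30.2 RPM at day 4 and 34.9 and 33.7 RPM in XEN cells. The 16 h libraries differed from each other more than those of 8 h and day 4 did. The log2 change from 8 h to day 4 was 1.07 (SE 0.275, adjusted p = 0.00115), and 0.97 without the shallower day 4 library. At the gene start (chr14:63271477-63272037, overlapping an exon of Gata4) the signal was lower in RPM, with 2.06 and 1.48 RPM at 8 h, 3.33 and 3.90 RPM at day 4 and 2.28 and 2.12 RPM in XEN cells. Its log2 change of 0.97 (SE 0.388, adjusted p = 0.0273) did not reach the size required.

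The 3 regions where GATA6 fell were 49.8 kb downstream and 95.0 and 96.3 kb upstream. Those 95.0 and 96.3 kb upstream lay nearer the start of Blk, 50.3 and 49.1 kb from it. At 49.8 kb downstream, inside Gata4, GATA6 went from 10.3 and 8.64 RPM at 8 h to 3.22 and 3.99 RPM at day 4, a log2 change of -1.35 (SE 0.279, adjusted p = 0.000132) that passed under every alternative tried. At 96.3 kb upstream it went from 3.31 and 5.32 RPM to 1.61 and 1.53 RPM, a change of -1.32 (SE 0.308, adjusted p = 0.000461) that was -0.99 without the shallower 8 h library. At 95.0 kb upstream the levels were low, 0.403 and 0.785 RPM and then 0.111 and 0.170 RPM, a change of -1.20 (SE 0.393, adjusted p = 0.00805). This call was lost without the shallower 8 h library (adjusted p = 0.128) and without the deeper day 4 library (adjusted p = 0.0593).

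Since regions differ in width, levels were also ranked per kb of region. In RPM per kb, the region 67.1 kb upstream of Gata4 was the highest of its window at 8 h (15.5) and at day 4 (19.5, against 15.5 for the region 40.4 kb downstream). In XEN cells the region 11.9 kb upstream was the highest, with 36.9 RPM per kb. Input also was higher at day 4 than at 8 h at these regions. It went from 1.02 and 1.04 RPM to 2.09 and 2.48 RPM at 67.1 kb upstream, from 1.56 and 1.98 RPM to 4.13 and 3.61 RPM at 40.4 kb downstream and from 1.07 and 0.849 RPM to 2.04 and 2.03 RPM at 11.9 kb upstream. Its part in the GATA6 changes was not tested.

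**Figure D2:**
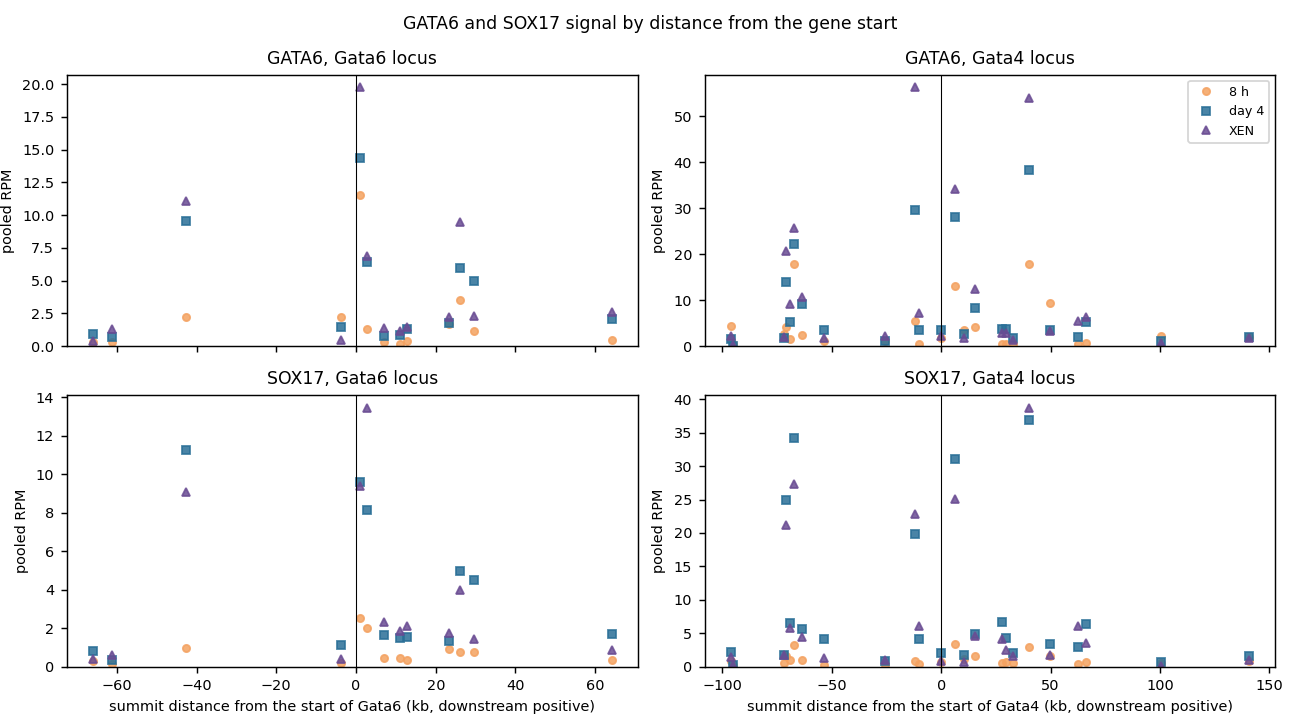
Pooled RPM (y) of GATA6 and SOX17 against the distance of each summit from the gene start in kb (x, downstream positive), for 8 h, day 4 and XEN cells. At Gata4 the highest GATA6 values at day 4 were 40.4 kb downstream (38.2 RPM) and 11.9 kb upstream (29.6 RPM), and at Gata6 they were 0.9 kb downstream (14.3 RPM) and 42.6 kb upstream (9.58 RPM).

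At Gata6, GATA6 was higher at day 4 than at 8 h in 7 of 13 regions and lower in 0, against 30.9% and 35.1% of all regions. edgeR called 9 higher and 0 lower, against 34.8% and 37% of all, and 10 regions had an unadjusted p under 0.05, against 75.9% of all. The pooled median change was 1.15 (SD between libraries 0.270). Of the 13 regions, 4 covered coding exons of Gata6, at 2.8, 7.0, 11.01 and 12.7 kb downstream, with 1117, 167, 126 and 129 coding bases. The transgene holds a Gata6 coding sequence, so reads from it and from the endogenous exons cannot be told apart. Without these regions 4 of 9 were higher and 0 lower, and the pooled median was 0.83. In the deposited motif calls 11 of the 13 regions held a GATA6 match, against 89.7% of all regions, with 2.996 matches per kb against 4.05. The best match held GATAAG in 4 of these 11, against 52.0% of all regions with a match. An OCT:SOX match was present in 8 of 13, a SOX17 match in 8 and an ESRRB match in 6. Over all regions the shares were 71.5%, 69.2% and 36.3%.

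The highest GATA6 region of the locus in RPM lay at the gene start, 0.9 kb downstream (chr18:11051211-11053515), overlapping exons of Gata6 and of its neighbour 1010001N08Rik but no coding exon. GATA6 measured 2.61 RPM before Dox, 11.02 and 12.0 RPM at 8 h, 11.3 and 22.3 RPM at 16 h, 11.4 and 7.99 RPM at day 1, 11.1 and 9.84 RPM at day 2, 12.7 and 16.0 RPM at day 4 and 21.2 and 18.3 RPM in XEN cells. It was thus present by 8 h, and the log2 change to day 4 of 0.30 (SE 0.274, adjusted p = 0.321) did not pass. In pooled RPM it stood at or above 96.0% of all regions at 8 h and 98.2% at day 4.

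The region 42.6 kb upstream of Gata6, inside 1010001N08Rik (chr18:11009081-11010048), gained GATA6 over time. It measured 0.817 RPM before Dox, 2.12 and 2.36 RPM at 8 h, 5.50 and 9.96 RPM at 16 h, 6.81 and 5.85 RPM at day 1, 8.75 and 6.72 RPM at day 2, 7.87 and 11.3 RPM at day 4 and 12.0 and 10.1 RPM in XEN cells. All libraries from 16 h on were above both of 8 h. The log2 change from 8 h to day 4 was 1.99 (SE 0.295, adjusted p = 2.13e-06) and passed under every alternative tried. Input moved in the same direction here, from 0.623 and 0.472 RPM at 8 h to 0.985 and 1.08 RPM at day 2, 1.19 and 2.15 RPM at day 4 and 1.33 and 2.20 RPM in XEN cells, and its part in the changes of GATA6 and the other factors at this region was not tested. Per kb it was the highest of the Gata6 window at day 4, with 9.91 RPM per kb against 6.22 for the region at the start.

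The 2 regions 60 to 70 kb upstream of Gata6 were narrow, with 390 and 249 bases, and low in RPM. Per kb, GATA6 reached 3.07 RPM at day 2 at the first, against a median of 2.23 over all regions, and 5.20 in XEN cells at the second, against 2.78. At 66.0 kb (chr18:10985890-10986280) GATA6 gave 0.230 and 0.436 RPM at 8 h, 1.18 and 1.22 RPM at day 2, 0.499 and 1.44 RPM at day 4 and 0.522 and 0.274 RPM in XEN cells. Its log2 change of 1.04 (SE 0.430, adjusted p = 0.0313) no longer passed without the deeper 8 h library (0.76) or the shallower day 4 library (0.42). At 61.3 kb (chr18:10990653-10990902) it gave 0.130 and 0.524 RPM at 8 h, 0.610 and 0.849 RPM at day 4 and 1.63 and 0.960 RPM in XEN cells, and its change of 0.93 (SE 0.396, adjusted p = 0.0370) was under the size required. On the other side, 64.1 kb downstream and outside genes (chr18:11115924-11116377), GATA6 went from 0.317 and 0.611 RPM at 8 h to 2.27 and 1.95 RPM at day 4, a change of 1.85 (SE 0.403, adjusted p = 0.000237).

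**Figure D3:**
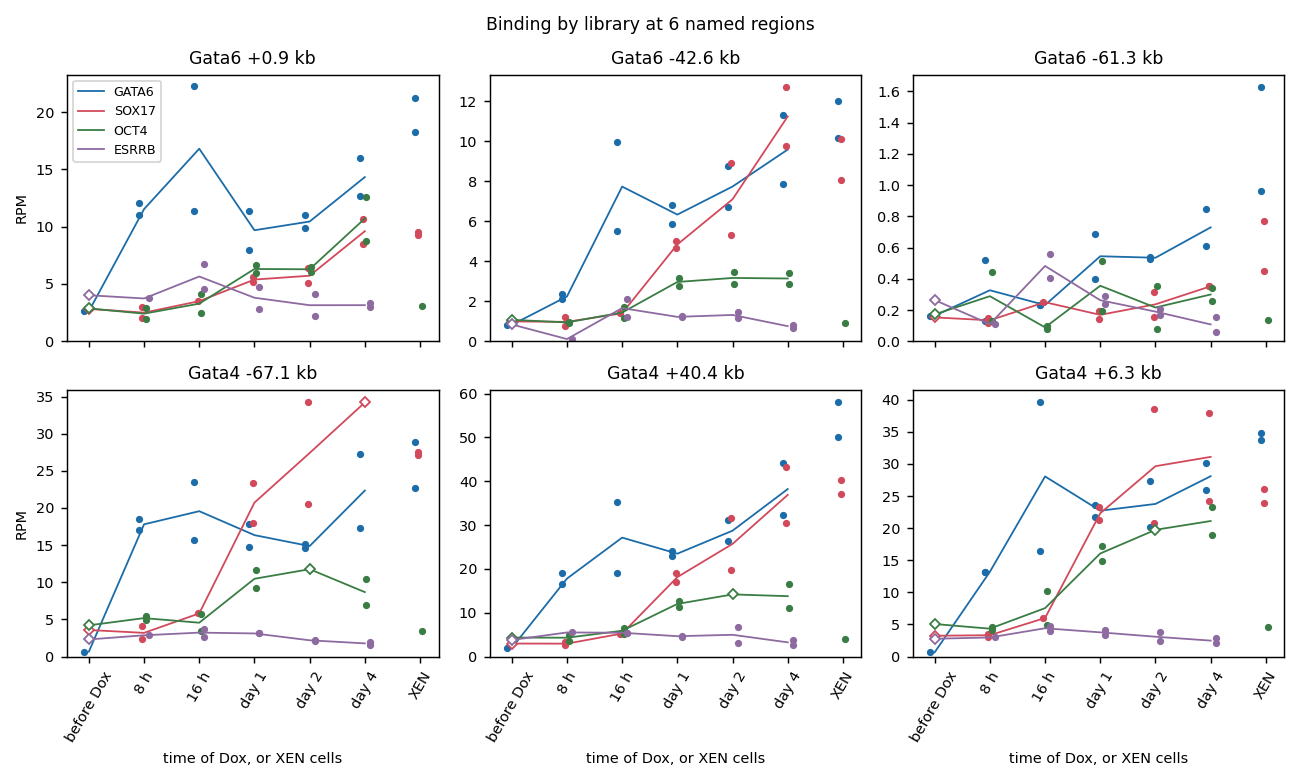
RPM (y) of GATA6, SOX17, OCT4 and ESRRB at 6 regions over Dox time and in XEN cells (x), with filled points for separated libraries, open diamonds for pooled values that could not be separated, and lines through the pooled values. At Gata4 +6.3 kb SOX17 reached 23.3 and 21.3 RPM and OCT4 14.8 and 17.3 RPM at day 1, after 3.07 and 3.57 RPM and 4.58 and 4.09 RPM at 8 h, and OCT4 in XEN cells was 4.67 RPM in a single library.

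The coding-exon regions carried signal in input and before Dox. The largest of them, 2.8 kb downstream of the Gata6 start (chr18:11054007-11055241), had 8.49 RPM of GATA6 before Dox and 1.12 and 1.57 RPM at 8 h. In input it had 4.03 RPM before Dox, 0.979 and 0.849 RPM at 8 h, 1.72 and 13.4 RPM at day 1, 3.74 and 5.08 RPM at day 4 and 3.70 and 3.88 RPM in XEN cells. The input libraries of day 1 thus differed 7.78-fold, the widest gap of any pair at this region. SOX17 gave 43.1 and 11.9 RPM here at day 2. The SOX17 libraries with control siRNA, transfected and sequenced differently and not compared by a test, gave 1.59 and 1.39 RPM at this region. Across the 45 columns the other exon regions moved with this one, with Pearson r of 0.875 (7.0 kb), 0.862 (11.01 kb) and 0.791 (12.7 kb), a description over columns that share libraries and depth.

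Summed over the 4 exon regions, input gave 2.64 RPM per kb before Dox, against 0.779 in the other 9 Gata6 regions and a median of 0.860 over all regions. At 8 h the pooled input was 0.826 RPM per kb on the exon regions and 0.686 on the others. At day 1 the exon regions gave 1.28 RPM per kb in the deeper input library and 7.63 in the shallower. XEN cells gave 2.66 RPM per kb of input on the exon regions and 1.26 on the others. The part of the transgene in these values was not tested.

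**Figure D4:**
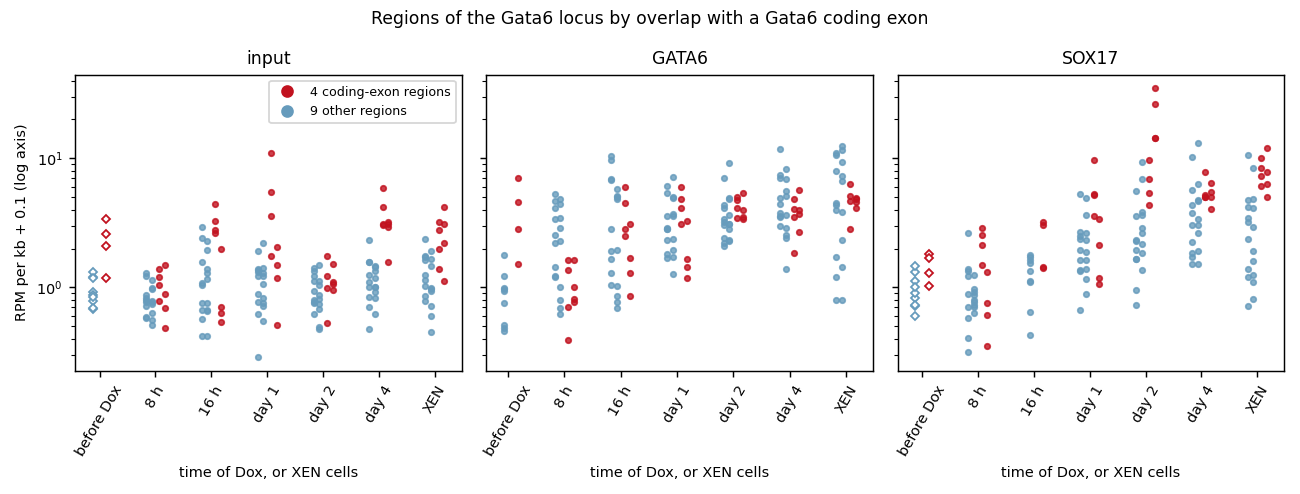
RPM per kb plus 0.1 (y, log axis) of the 13 Gata6 regions in each library of input, GATA6 and SOX17, by condition (x), with the 4 regions on coding exons and the 9 others in separate colours and open diamonds for pooled values. In the deeper SOX17 library of day 2 the exon regions together gave 27.6 RPM per kb and the others 3.73, and in the single GATA6 library before Dox they gave 5.13 and the others 0.826.

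SOX17 was higher at day 4 than at 8 h at most regions of both loci. In the Gata4 window 18 of 23 regions tested were higher and 0 lower, and in the Gata6 window 11 of 13 were higher and 0 lower (7 of 9 without the exon regions). Over all regions 44.6% were higher and 7.17% lower, with a median log2 change of 0.79. The pooled medians were 2.39 (SD between libraries 0.0558) at Gata4 and 1.68 (SD 0.517) at Gata6. By size alone 19 of 24 and 11 of 13 regions rose by more than 1, against 44.5% of all, and 0 fell, against 7.32%. With libraries centred on their median over all regions, the calls at both loci were 17, all higher, against 27.3% higher and 22.3% lower of all.

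The region 40.4 kb downstream of Gata4 had the highest SOX17 value at day 4. It measured 2.96 RPM before Dox, 2.54 and 3.33 RPM at 8 h, 5.25 RPM at 16 h, 19.1 and 17.1 RPM at day 1, 31.6 and 19.8 RPM at day 2, 43.3 and 30.5 RPM at day 4 and 37.1 and 40.4 RPM in XEN cells. Every library from day 1 on lay above all values up to 16 h, and the log2 change from 8 h to day 4 was 3.56 (SE 0.324, adjusted p = 1.96e-22). Per kb, the region 67.1 kb upstream was higher at day 4, with 29.8 RPM per kb against 14.9. Its day 4 libraries could not be separated, so its rise from 2.32 and 4.05 RPM at 8 h to 34.2 RPM pooled at day 4 was not tested.

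The largest SOX17 change of both loci was 11.9 kb upstream of Gata4, from 0.972 and 0.595 RPM at 8 h to 22.9 and 16.9 RPM at day 4, or 4.38 (SE 0.343, adjusted p = 2.21e-28) in log2. At 6.3 kb downstream SOX17 went from 3.07 and 3.57 RPM to 37.9 and 24.3 RPM, a change of 3.12 (SE 0.325, adjusted p = 4.63e-18). Both passed under every alternative tried. At the Gata4 start SOX17 was low, with 0.673 and 0.595 RPM at 8 h and 2.65 and 1.27 RPM at day 4. Its change of 1.30 (SE 0.395, adjusted p = 0.00266) no longer passed without the deeper day 4 library (0.82) or with centred libraries (0.57).

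In the Gata6 window the highest SOX17 value at day 4 was 42.6 kb upstream. There the libraries gave 0.748 and 1.19 RPM at 8 h, 4.65 and 5.02 RPM at day 1, 8.89 and 5.30 RPM at day 2, 12.7 and 9.78 RPM at day 4 and 8.05 and 10.1 RPM in XEN cells, all later ones above those of 8 h. The log2 change to day 4 was 3.31 (SE 0.350, adjusted p = 1.08e-17). At the Gata6 start SOX17 went from 2.02 and 2.98 RPM at 8 h to 10.7 and 8.51 RPM at day 4, a change of 1.88 (SE 0.344, adjusted p = 4.34e-07). At 66.0 kb upstream it peaked at day 2, with 2.68 and 1.34 RPM, and its change to day 4 of 1.15 (SE 0.415, adjusted p = 0.0123) was lost without the shallower 8 h library (0.63), without the deeper day 4 library (0.89) and with centred libraries (0.42). At 61.3 kb upstream it gave 0.353 and 0.352 RPM at day 4 and did not pass.

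OCT4 was higher at day 2 than at 8 h at 10 of 21 Gata4 regions tested and at 2 of 13 Gata6 regions, neither of them on a coding exon, and lower at 0. Over all regions 16.5% were higher and 9.7% lower. This comparison was added after seeing the data, because the libraries before Dox could not be separated. From before Dox to day 2 the pooled median change was 0.98 at Gata4 (SD between day 2 libraries 0.386) and 0.71 at Gata6 (SD 0.0777), against 0.23 over all regions. By size, 12 of 24 and 2 of 13 rose by more than 1, against 14.6% of all, and 0 fell, against 4.86%.

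The highest OCT4 value at day 2 was 6.3 kb downstream of the Gata4 start, the region of the OCT:SOX match printed above. OCT4 measured 5.06 RPM before Dox, 4.58 and 4.09 RPM at 8 h, 10.2 and 4.87 RPM at 16 h, 14.8 and 17.3 RPM at day 1, 19.7 RPM pooled at day 2 and 23.3 and 18.9 RPM at day 4. All day 1 and day 4 libraries were above those of 8 h and 16 h, and XEN cells gave 4.67 RPM in a single library. The regions 40.4 kb downstream and 67.1 kb upstream reached 14.2 and 11.8 RPM pooled at day 2, after 3.60 and 4.98 RPM and 5.43 and 4.91 RPM at 8 h. None of these 3 could be tested at day 2.

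At 11.9 kb upstream of Gata4, OCT4 went from 1.37 and 1.41 RPM at 8 h to 6.28 and 9.17 RPM at day 2, a log2 change of 2.31 (SE 0.311, adjusted p = 8.17e-06). The largest change was 63.7 kb upstream, from 0.851 and 1.41 RPM to 5.43 and 8.05 RPM, or 2.42 (SE 0.332, adjusted p = 1.12e-05). These were the 2 of the 12 calls that passed under every alternative tried. At the Gata4 start OCT4 went from 0.393 and 0.446 RPM to 1.62 and 1.70 RPM, a change of 1.64 (SE 0.390, adjusted p = 0.00281).

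At Gata6, OCT4 rose 42.6 kb upstream from 0.916 and 0.967 RPM at 8 h to 2.86 and 3.47 RPM at day 2, a log2 change of 1.58 (SE 0.316, adjusted p = 0.000642). At the Gata6 start it went from 2.88 and 1.93 RPM to 6.04 and 6.52 RPM, a change of 1.35 (SE 0.311, adjusted p = 0.00221), with an adjusted p of 0.0582 without the shallower 8 h library. By day 4 the start gave 8.79 and 12.6 RPM, above all earlier libraries. Neither of the regions 66.0 and 61.3 kb upstream passed, with 0.424 and 0.705 RPM and 0.0795 and 0.353 RPM at day 2.

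SOX2 was higher at day 2 than at 8 h at 6 of 24 Gata4 regions and 1 of 13 Gata6 regions and lower at 0, in a comparison also added after seeing the data. Over all regions 5.44% were higher and 7.22% lower. From before Dox to day 2 the pooled medians were 0.66 at Gata4 (SD between day 2 libraries 0.186) and 0.37 at Gata6 (SD 0.159), against 0.00 over all regions. By size, 6 of 24 and 2 of 13 rose by more than 1, against 6.01% of all, and 0 fell, against 6.7%.

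The largest SOX2 change was 11.9 kb upstream of Gata4, from 1.63 and 0.885 RPM at 8 h to 3.56 and 7.44 RPM at day 2, or 1.93 (SE 0.373, adjusted p = 0.000899) in log2, and the level reached 16.4 and 19.0 RPM at day 4. At Gata6 the region that passed was 42.6 kb upstream, with 0.719 and 0.885 RPM at 8 h and 2.31 and 3.54 RPM at day 2, a change of 1.62 (SE 0.405, adjusted p = 0.00700). Every one of the 7 SOX2 calls was lost when 1 library or another was left out. Each of these fits left 1 library in a group, and calls over all regions were rarer in them too, so the loss was not particular to these loci.

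ESRRB was lower at day 4 than at 16 h at 7 of 24 Gata4 regions and higher at 0, while at Gata6 1 of 13 was lower and 3 were higher. Over all regions 27.4% were lower and 0.255% higher, with a median log2 change of -0.57. This comparison was added after seeing the data and starts at 16 h, the earliest time with 2 separated libraries. The 3 that rose were on Gata6 coding exons, 2.8, 7.0 and 12.7 kb downstream, and without the exon regions 0 of 9 were higher. The first of them went from 3.50 and 6.86 RPM to 20.6 and 15.5 RPM, a change of 1.83 (SE 0.492, adjusted p = 0.00198), at a place where input varied as given above. From before Dox to day 4 the pooled medians were -0.05 at Gata4 (SD between day 4 libraries 0.0110) and -0.06 at Gata6 (SD 0.175), against -0.40 over all regions. Without the exon regions the Gata6 median was -0.21 in the pooled values, and in the fit from 16 h to day 4 it was -0.95 against -0.63 with them. By size, 4 of 24 Gata4 regions fell by more than 1, against 25.2% of all, and 4 of 13 Gata6 regions rose, all on coding exons, against 0.248%.

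Among the regions where ESRRB fell were 2 where GATA6 fell too. At 49.8 kb downstream of Gata4, ESRRB had 4.44 and 4.34 RPM at 16 h and 0.936 and 0.953 RPM at day 4, a log2 change of -2.04 (SE 0.436, adjusted p = 7.95e-05). At 96.3 kb upstream it had 3.23 and 4.34 RPM and then 0.780 and 0.536 RPM, a change of -2.27 (SE 0.432, adjusted p = 8.82e-06). At 70.8 kb upstream, where GATA6 rose by 1.69, ESRRB went from 7.67 and 4.20 RPM to 1.40 and 1.25 RPM, a change of -1.97 (SE 0.460, adjusted p = 0.000304). These 3 passed under every alternative tried. The Gata4 start went from 2.83 and 2.80 RPM to 0.520 and 0.715 RPM, a change of -1.94 (SE 0.431, adjusted p = 0.000146). At the regions 40.4 and 6.3 kb downstream and 67.1 kb upstream of Gata4 the changes were -0.74, -0.80 and -0.79, and none passed. At Gata6 the region 61.3 kb upstream changed by -1.26 (SE 0.403, adjusted p = 0.0107), a call that edgeR did not make (adjusted p = 0.0611) and that was lost without the shallower library of 16 h or of day 4.

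In the knock-down, GATA6 passed the test at 1 of 37 regions, which was higher with Oct4 siRNA, and 0 were lower (FDR under 0.1 and log2 change over 0.5, the study's thresholds). Over all regions 8.64% were higher and 6.75% lower. An unadjusted p under 0.05 was found at 5 of the 37, against 24.2% of all regions. With libraries centred on their median over all regions, 4 were higher and 3 lower, against 13.5% and 15.3% of all. The pooled medians were -0.04 at Gata6 (SD between libraries 0.362) and 0.10 at Gata4 (SD 0.675). By size, 0 of the 37 changed by more than 1, against 7.77% of all regions that rose and 5.28% that fell. The region that passed lay 66.1 kb downstream of the Gata4 start, inside the gene (chr14:63205166-63205920). There GATA6 gave 2.76 and 3.97 RPM with control siRNA and 6.46 and 7.26 RPM with Oct4 siRNA, without overlap. The log2 difference was 1.00 (SE 0.339, adjusted p = 0.0360). The adjusted p was 0.410 without the deeper control library and 0.229 without the shallower Oct4 siRNA library.

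At the strongest sites no GATA6 difference passed. The region 40.4 kb downstream of Gata4 had 43.7 and 60.7 RPM with control and 44.9 and 56.9 RPM with Oct4 siRNA, a log2 difference of -0.03 (SE 0.335, adjusted p = 0.978). At the Gata6 start the values were 15.8 and 15.7 RPM and then 17.9 and 17.1 RPM, a difference of 0.15 (SE 0.323, adjusted p = 0.833). At 42.6 kb upstream of Gata6 they were 10.6 and 10.8 RPM and then 9.03 and 11.7 RPM, a difference of -0.06 (SE 0.324, adjusted p = 0.941). The siRNA groups overlapped at the first and the last of these and not at the Gata6 start. Also strong were the Gata4 regions 6.3 kb downstream and 11.9 and 67.1 kb upstream. Their log2 differences were -0.06 (SE 0.331), 0.39 (SE 0.332) and 0.08 (SE 0.325), and none passed. At 11.9 kb upstream the groups did not overlap, with 33.8 and 38.4 RPM with control and 41.1 and 54.4 RPM with Oct4 siRNA. At 6.3 kb downstream and 67.1 kb upstream they overlapped.

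The regions with the largest pooled differences were named by a rule of size, and none of the 3 below passed. At Gata6, GATA6 went from 2.12 and 2.55 RPM with control to 1.20 and 1.49 RPM with Oct4 siRNA 66.0 kb upstream, a log2 difference of -0.72 (SE 0.392, adjusted p = 0.245). At 64.1 kb downstream it went from 1.67 and 2.46 RPM to 3.23 and 4.58 RPM, a difference of 0.86 (SE 0.363, adjusted p = 0.109). At Gata4, 25.7 kb upstream, it went from 1.77 and 1.60 RPM to 1.05 and 0.696 RPM, a difference of -0.83 (SE 0.415, adjusted p = 0.193).

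SOX17 in the same knock-down was higher with Oct4 siRNA over all regions, by a median of 0.52 in the pooled values and 0.47 in the fit. The pooled medians were 0.65 at Gata6 (SD between libraries 0.969) and 0.62 at Gata4 (SD 0.754). By size, 4 of 13 and 6 of 24 regions rose by more than 1, against 20.8% of all, and 0 fell, against 0.441%. In the fit 2 of 34 regions tested were higher and 0 lower, against 4.1% and 0.0331% of all regions, and 7 had an unadjusted p under 0.05, against 15.8%. With centred libraries 6 were higher and 1 lower, against 10.4% and 8.45% of all.

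The 2 regions were again 66.1 kb downstream of Gata4, with 1.67 and 1.24 RPM with control and 4.05 and 5.68 RPM with Oct4 siRNA, a log2 difference of 1.61 (SE 0.543, adjusted p = 0.0853), and 61.3 kb upstream of Gata6. The latter was low in RPM, with 0.0837 and 0.155 RPM and then 0.578 and 1.38 RPM, a difference of 1.83 (SE 0.546, adjusted p = 0.0431). The libraries with Oct4 siRNA differed from each other, as at 6.3 kb downstream of Gata4 with 25.8 and 47.2 RPM. Without the deeper of them 23 regions passed, all higher, where 51.1% of all regions were called higher. Without the shallower 3 were higher and 1 lower, against 8.14% and 3.46% of all, and without either control library 0 of all regions passed in limma, with an unadjusted p under 0.05 at 1.79% (deeper left out) and 1.56% (shallower left out) of all.

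**Figure D5:**
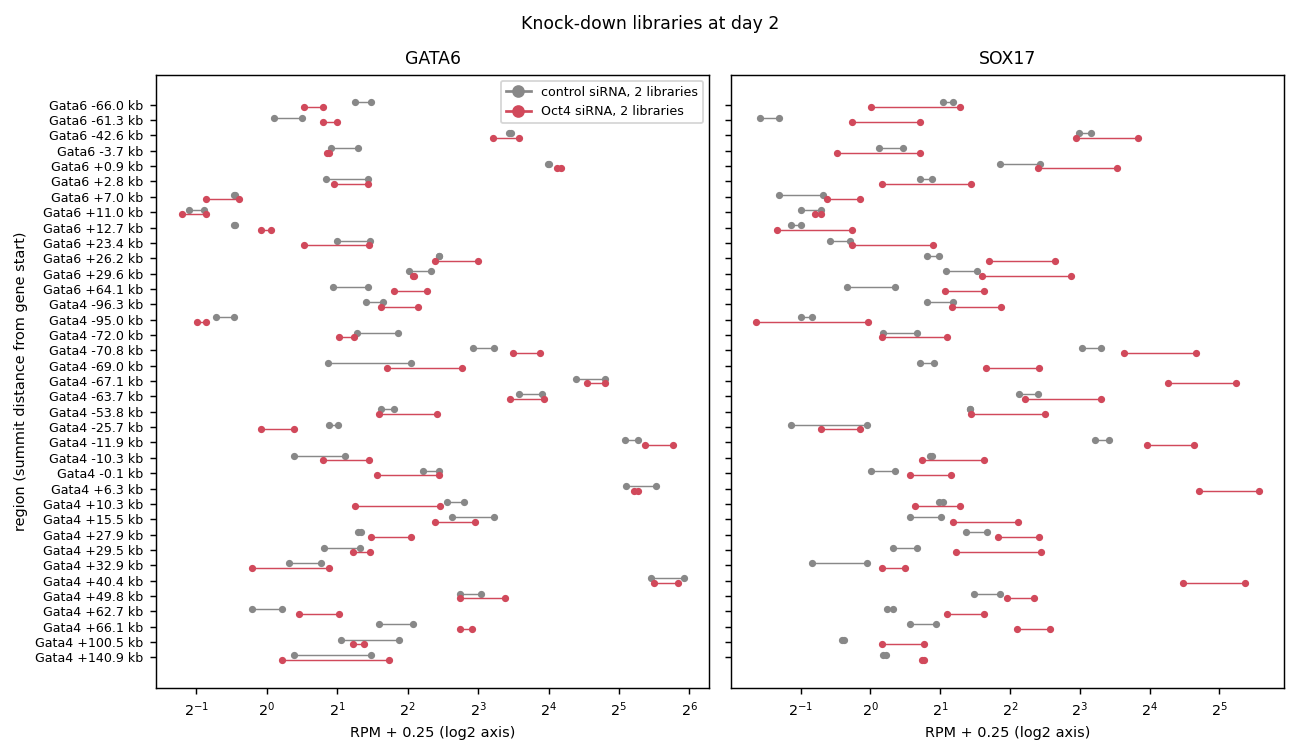
RPM plus 0.25 (x, log2 axis) of GATA6 and SOX17 at each region (y, minus for upstream of the gene start) in the 2 libraries with control siRNA and the 2 with Oct4 siRNA. At Gata4 +66.1 kb the groups lie apart for both factors, and the SOX17 control libraries are missing at the 3 regions whose pooled value could not be separated.

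The authors' classes put 17 of the 37 regions among those bound early and constantly, 14 among late and 6 among transient ones, against 28.0%, 33.6% and 38.4% of all regions. SOX17 was assigned to 29, or 78.4%, against 44.5% of all. In undifferentiated cells 28 were classed as closed, 9 as moderate and 0 as accessible, against 61.3%, 31.2% and 7.43% of all regions. By histone marks 18, or 48.6%, were facultative heterochromatin, against 22.3% of all, and 14 of these 18 were at Gata4. A further 9 were poised enhancers and 0 active enhancers, against 14.6% and 11.15% of all. For pluripotency factors, 9 were classed as ectopically bound, 23 as without them and 5 as bound before Dox, against 16.6%, 62.6% and 20.8% of all regions. These 5 were all at Gata4, 67.1 and 96.3 kb upstream and 6.3, 40.4 and 49.8 kb downstream. The shares were not tested.

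The regions most alike to the strongest region of each locus at day 4 were found by the correlation of log2 values over 34 columns of the time course and XEN cells, which share libraries and depth. For the Gata6 start these were nearest the starts of Esrp2, Hk2, Pofut1, Plpbp and Rassf3, with Pearson r from 0.960 to 0.946, against a median of 0.54 for all others. For the region 40.4 kb downstream of Gata4 they were nearest Aqp8, Rreb1, Lmo7, Pdgfra and Slc5a11, with r from 0.989 to 0.982, against 0.56.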

How the data were processed

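ChIP-seq of GATA6, SOX17, OCT4, SOX2 and ESRRB and input was made from 96 labelled libraries in 47 conditions, of which 45 had a column of the deposited table. The authors trimmed reads with cutadapt, aligned them to mm10 with Bowtie2, removed duplicates by molecular identifiers, called peaks with MACS2 and counted reads per region, corrected to library size as RPM. Knock-down libraries were read as paired ends of 100 bases, the others as single ends of 75, so levels were not compared between these sets by a test. The motif scores and numbers of matches per region were deposited by the authors, as were the classes. A further 14 columns of per-sample values were not used, and a column with the authors' own DESeq2 comparison of the knock-down was left out.

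Pooled RPM were split here into whole reads per library. Of 1332 values of the described regions in columns of 2 libraries, 1325 split uniquely, and the rest were left out of the fits. The 2 libraries of such a column need not be the labelled ones, since 3 columns with 3 labelled libraries held 2 steps. limma 3.58.1 (R 4.3.3) was fitted with trend to log2(RPM + pseudocount) over all regions, with Benjamini-Hochberg adjustment. The pseudocounts were 0.193 (GATA6), 0.192 (SOX17), 0.167 (OCT4), 0.195 (SOX2) and 0.164 RPM (ESRRB), so changes of weak regions are understated. The time course fits took all separated times and XEN cells, the knock-down fits only their groups. edgeR 4.0.16 on the separated reads was an alternative. The fits were tested on simulated data. Depth limits weak regions, and RPM holds no correction for differences in enrichment between libraries. Gene positions and exons came from GENCODE M21 and sequences from the RefSeq GRCm38 assembly, the build of mm10.

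The members, lists and thresholds were chosen with earlier results of these data known. Regions described in full were the highest in GATA6 (8 h, day 4, XEN cells), SOX17 (day 4) or OCT4 (day 2), those nearest the gene start, those 60 to 70 kb upstream of Gata6, and the largest rise and fall of GATA6 with Oct4 siRNA. The Gata4 regions 10.3, 63.7, 70.8, 95.0 and 96.3 kb upstream and 49.8 kb downstream and the coding-exon regions were named after their values were seen. Regions near 1 further gene of the list of PrE regulators are not reported here.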

Additional observations from a re-analysis of the deposited data

Results flagged for a closer look

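At 2 of the Gata6 coding-exon regions, signal was found in samples that the comparisons of the report do not use. At 2.8 kb downstream of the Gata6 start, input gave 3.27 RPM per kb before Dox, 6.12 at day 1 and 3.57 at day 4, against medians over all regions of 0.860, 0.800 and 0.877. GATA6 before Dox gave 6.88 RPM per kb there, against a median of 0.835. At 7.0 kb downstream, input gave 2.50 RPM per kb before Dox, 3.67 at day 1 and 4.48 at day 4, and GATA6 before Dox gave 4.51. Each of these values stood at or above 99.7% of all regions. The input values are pooled, GATA6 before Dox is a single library, and the input libraries of day 1 differed as given in the report. Whether they came from the transgene was not tested.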

How the results depend on the processing

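An alternative median was called close if it moved by less than its SD between libraries, and a count if within a set fold. Where this SD exceeds the median, staying close says little. This was so for SOX17 in the knock-down, with an SD of 0.969 at Gata6 and 0.754 at Gata4. Of 122 alternative values for 21 results, 76 stayed close to the reported value and 46 moved. Of the latter, 2 changed sign, the ESRRB medians relative to all regions, at Gata4 from a value beyond its SD and at Gata6 from one within it. With a pseudocount 10 times larger, the medians were 0.44 (Gata6) and 0.71 (Gata4) for GATA6, 0.60 and 1.16 for SOX17, 0.18 and 0.43 for OCT4, 0.098 and 0.25 for SOX2, and -0.0084 for ESRRB at Gata4. The numbers of regions past the threshold were then 13 for GATA6 and 17 for SOX17 from 8 h to day 4, 2 for OCT4, 3 for SOX2, 4 for ESRRB and 0 for SOX17 in the knock-down. Of all regions, 11% were then higher and 14.5% lower for GATA6, and 19.5% and 0.269% for SOX17. The shares were 3.28% and 2.55% for OCT4, 0.807% and 1.54% for SOX2 and 0.00236% and 8.67% for ESRRB. For SOX17 in the knock-down they were 1.73% and 0.00236%. With a pseudocount 10 times smaller, the medians were 1.49 for GATA6 at Gata6 and 2.63 for SOX17 at Gata4. After subtraction of input they were 3.10 for SOX17 at Gata4, 1.19 and 1.80 for OCT4, 0.74 and 1.16 for SOX2, and -0.67 for ESRRB at Gata4. Relative to the median change of all regions they were 0.90 and 1.60 for SOX17, 0.48 for OCT4 at Gata6, and 0.33 (Gata6) and 0.35 (Gata4) for ESRRB, both reversed in sign, since all regions fell by more. With centred libraries 17 regions passed for SOX17 from 8 h to day 4, and in the knock-down 7 for GATA6 (4 higher, 3 lower) and 7 for SOX17 (6 higher, 1 lower). With the regions of lowest mean signal left out, 3 passed in the knock-down for GATA6 and 1 for SOX17. Of all regions kept, 10.4% were then higher and 8.19% lower for GATA6, and 6.72% and 0.0694% for SOX17. In the knock-down edgeR gave 1 for SOX17, against 3.95% higher and 0.0166% lower of all regions.

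Leaving out each library in turn gave 21 to 24 regions for GATA6 and 27 to 29 for SOX17 from 8 h to day 4, 8 to 10 for OCT4, 0 to 5 for SOX2 and 7 to 10 for ESRRB, and in the knock-down 0 to 3 for GATA6 and 0 to 23 for SOX17. A lone library is then assumed to vary like those of the other groups. The share of all regions called also differed between these fits, most widely for SOX17 in the knock-down, as given in the report. These ranges therefore cannot be read as a property of the 37 regions alone. Of the calls, 12 of 23 for GATA6, 17 of 29 for SOX17, 2 of 12 for OCT4, 0 of 7 for SOX2 and 3 of 11 for ESRRB passed under every alternative, and none changed direction. In the knock-down 0 of 1 (GATA6) and 0 of 2 (SOX17) did. No paired analysis was possible because the separated libraries carry no replicate number.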

Other observations

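Regions within 100 kb of 5 other regulators or markers of PrE (Sox17, Sox7, Foxa2, Hnf4a and Pdgfra) were counted in the same fits, as a description. For comparison, GATA6 was higher in 30.9% and lower in 35.1% of all regions, and SOX17 was higher in 44.6% and lower in 7.17%. Near Foxa2, a forkhead factor of endoderm, GATA6 was higher at day 4 than at 8 h in 19 of 27 regions and lower in 2, and SOX17 was higher in 20 and lower in 0. Near Sox17 itself, GATA6 was higher in 6 of 11 regions and lower in 2, and SOX17 was higher in 9 and lower in 0. Near Sox7, a related SOX factor, GATA6 was higher in 5 of 13 and lower in 2, and SOX17 was higher in 7 and lower in 2. Near Hnf4a, a nuclear receptor of endoderm, GATA6 was higher in 4 of 8 and lower in 3, and SOX17 was higher in 3 and lower in 1. Near Pdgfra, the receptor used as a PrE marker, GATA6 was higher in 7 of 20 and lower in 5, and SOX17 was higher in 15 and lower in 1.

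Of 35 regions near the other GATA family genes Gata1, Gata2, Gata3 and Gata5, GATA6 was higher in 6 and lower in 19, with a median of -1.37, and SOX17 was higher in 8 and lower in 7. Near Gata1, an erythroid regulator, GATA6 was lower in 9 of 13 regions and higher in 1. Near Gata3 it was higher in 3 of 7 and lower in 1. Over all regions GATA6 was higher in 30.9% and lower in 35.1%, and SOX17 was higher in 44.6% and lower in 7.17%. Differences between these genes were not tested.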
